A study of Homo sapiens with 12 samples.

Results

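The stretch of chromosome 8 from position 127000000 to 130000000 (hg38) holds MYC, the non-coding gene PVT1 next to it, a long gap and the non-coding gene CCDC26. All regions of the deposited H3K9ac table in this stretch were taken, 54 of 47648 in all, counting 1 that crosses the far edge. The 17 with a mean of at least 10 CPM over the 6 libraries are described one by one, and the 37 weaker ones as a group. CPM is reads scaled to a total of 1000000 over all listed regions. Regions were thus chosen by position and by mean level, which is a description, and the locus was singled out with the lower signal at CCDC26 already known.

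MYC is a transcription factor of the basic helix-loop-helix kind that drives growth and division, and blood cells keep it active through enhancers far from the gene. In blood progenitors and in KMT2A-rearranged acute myeloid leukaemia these enhancers form a cluster inside CCDC26, where blood transcription factors and SWI/SNF complexes bind. PVT1 is a long non-coding RNA gene whose promoter can compete with that of MYC for enhancers. Acetylated lysine 9 of histone H3 (H3K9ac) marks active promoters and enhancers.

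The cells were MOLM-13, a human acute myeloid leukaemia line with a KMT2A-MLLT3 fusion, an internal tandem duplication of FLT3 and extra copies of chromosome 8. WM-1119, an inhibitor of the lysine acetyltransferase KAT6A, was given at 4 µM for 4 days, and DMSO was its solvent control. Each treatment had 3 H3K9ac ChIP-seq libraries of the 12 samples, and the 6 input libraries were not analysed here. The study asked what KAT6A inhibition does to the epigenetic state of these cells.

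The WM-1119 libraries held 4542322, 9996190 and 12705349 reads in regions (replicates 1, 2 and 3), against 719329, 1298443 and 7481097 in the DMSO libraries. DMSO replicates 1 and 2 stood apart from the rest. The 37 weak regions of the locus had 12.7, 8.24 and 6.82 CPM per kb in WM-1119 replicates 1, 2 and 3, against 39.6, 31.9 and 8.61 CPM per kb in DMSO replicates 1, 2 and 3. Values are therefore given per library, and the part of this raised weak signal in the differences below was not tested unless a value without these libraries is given. Whether the replicates came from separate cultures is not stated in the labels, and p-values cover no more than the spread between these libraries, which may be technical. A share of a fixed total cannot show a gain or loss over the whole genome, and fewer marked cells and less mark per cell cannot be told apart.

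Of the defining genes of the line, 6 of 8 myeloid ones had an end region (within 1 kb of an annotated gene end) of at least 10 CPM, led by HOXA9 at 1048 CPM over the 6 libraries, while CD33 and MPO had 3.67 and 9.57 CPM. None of the 5 lymphoid or 5 erythroid genes reached 10 CPM: 3 and 1 had a listed region, the highest of them CD3E at 4.26 CPM.

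Signal along the locus was uneven. No listed region lay in the 734 kb before the MYC region, and none of at least 10 CPM lay in the 1366 kb between the last region of PVT1 and the first of CCDC26, where the 2 listed regions, at 128174371 and 128973593, averaged 2.50 and 6.97 CPM. MYC held 1 of the 17, the interval between MYC and PVT1 held 1, PVT1 held 3, CCDC26 held 8 and CYRIB, whose product binds Rac1, held 4. Distances below are from the annotated end of MYC.

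**Figure D1:**
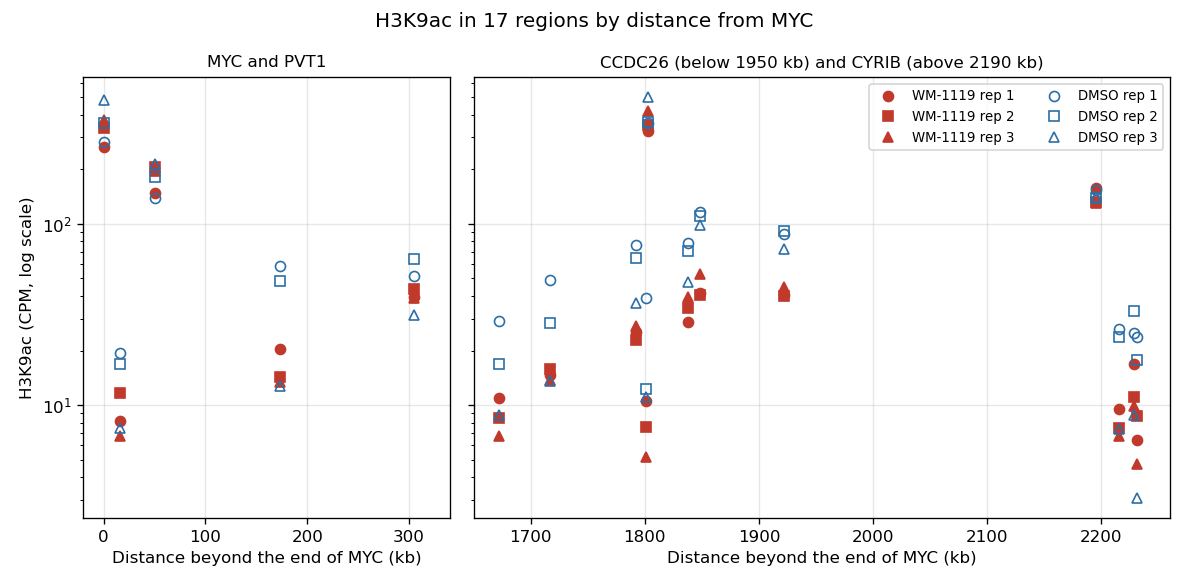
H3K9ac in CPM (log axis) of the 17 regions against their distance beyond the end of MYC in kb, with 1 point per library (WM-1119 filled, DMSO open). The MYC region and the strongest CCDC26 region, 1802 kb away, stand at 265 to 498 CPM in every library, while the CCDC26 region at 1848 kb stands at 40.4 to 52.6 CPM in WM-1119 and 98.1 to 115 CPM in DMSO.

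With WM-1119, 3 of the 17 regions, all in CCDC26, fell past the threshold, and no region rose. The fitted value was lower than with DMSO in 16 of the 17, and in all 17 under quantile normalization. It was lower in 9 after median centring of the libraries and in 10 with DMSO replicate 3 as the only control. In edgeR on the recovered reads 12 were lower and none was called. The regions at 127759284, 129415445, 129544350, 129958112 and 129973664 averaged 6.60 to 8.84 CPM in WM-1119 and 14.6 to 20.8 CPM in DMSO. They reached the 10 CPM limit only through DMSO, so the limit itself favoured a lower value with WM-1119 there. Counts, shares and medians over the 17 include them. Median centring moved the median over all tested regions to 0.30 (log2), against -0.47 on CPM as deposited, and left the 3 regions lower (-0.22 to -0.49) and none called. The threshold was a Benjamini-Hochberg adjusted limma p under 0.05 over 44763 regions, fitted to log2(CPM + 1), where changes of weak regions come out too small. Over all tested regions 0.0603% were called lower and 0% higher. Among those averaging 10 CPM or more 0.189% were called lower, and 0.78% of such regions on chromosome 8 outside the locus. In the main fit a value below 0 was found in 77.2% of all tested regions, in 42.4% of those with at least 10 CPM and in 64.9% of those on the rest of chromosome 8. After median centring it was found in 822 of the 14323 regions with at least 10 CPM. On the rest of chromosome 8 it was then found in 183 of 769. Under quantile normalization these 2 counts were 6369 and 613. Since the locus was chosen with calls in CCDC26 known, its count of calls is read as a description only.

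The MYC region lay at chromosome 8 position 127734179 to 127740124, from just before the start of the gene into its body. It held 265, 337 and 375 CPM in WM-1119 replicates 1, 2 and 3, against 281, 360 and 482 CPM in DMSO replicates 1, 2 and 3. The groups overlapped, with DMSO replicate 3 the highest library and WM-1119 replicate 1 the lowest. The means were 325 ± 56.0 CPM in WM-1119 and 374 ± 101 CPM in DMSO (SD, n = 3 each), and the log2 change was -0.18 with an SE of 0.15 (adjusted p = 0.499 by limma). With DMSO replicate 3 as the only control the change was -0.58, and without DMSO replicate 3 it was 0.02. The 2 weak regions in the rest of the gene body, at 127740197 and 127740761, averaged 6.59 and 5.08 CPM over the 6 libraries.

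PVT1 was strongest at its start, 50.9 kb beyond MYC, in a region at 127793834 to 127796909 that also overlaps the microRNA gene MIR1204. This region held 148, 206 and 196 CPM in WM-1119 replicates 1, 2 and 3, against 139, 182 and 213 CPM in DMSO replicates 1, 2 and 3. The groups overlapped and their means differed by less than their SDs, at 183 ± 31.1 CPM in WM-1119 and 178 ± 37.0 CPM in DMSO (SD, n = 3 each), and the log2 change was 0.05, with an SE of 0.16 and a limma adjusted p of 0.848. It was the only one of the 17 with a positive fitted change, which turned to -0.17 under quantile normalization and to -0.23 with DMSO replicate 3 as the only control.

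Inside PVT1, 305 kb beyond MYC, the region at 128048098 to 128049784 overlaps the microRNA gene MIR1207. It held 39.4, 43.7 and 38.8 CPM in WM-1119 replicates 1, 2 and 3, against 51.4, 63.9 and 31.5 CPM in DMSO replicates 1, 2 and 3. DMSO replicate 3 was below every WM-1119 library and the other DMSO libraries above them, so the groups overlapped, and the log2 change was -0.21 with an SE of 0.21 (adjusted p = 0.563 by limma). The remaining PVT1 region, at 127916578 to 127918324, held 20.5, 14.3 and 13.4 CPM in WM-1119 replicates 1, 2 and 3, against 58.4, 48.5 and 12.7 CPM in DMSO replicates 1, 2 and 3. Here only DMSO replicates 1 and 2 were high. Its log2 change of -1.03 ± 0.52 (SE; limma adjusted p = 0.394) became 0.29 with DMSO replicate 3 as the only control. The region between MYC and PVT1, at 127759284 to 127760073, showed the same layout. It held 8.15, 11.6 and 6.77 CPM in WM-1119 replicates 1, 2 and 3, against 19.5, 16.9 and 7.49 CPM in DMSO replicates 1, 2 and 3.

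CCDC26 carried its 8 regions over 252 kb, from 1672 to 1922 kb beyond MYC. All 8 lie within the annotated gene, at 129351694 to 129680239. The strongest, at 129545431 to 129550658, was also the strongest of the whole locus in each of the 6 libraries. It held 323, 351 and 418 CPM in WM-1119 replicates 1, 2 and 3, against 360, 363 and 498 CPM in DMSO replicates 1, 2 and 3. The groups overlapped, and the log2 change was -0.15 with an SE of 0.14 (adjusted p = 0.533 by limma). This change was -0.46 with DMSO replicate 3 as the only control and -0.37 under quantile normalization. It was 0.62 after median centring, beside a median of 1.00 for all tested regions of at least 100 CPM, and 0.20 in edgeR. By mean level it was 87th of the 47648 regions, ahead of MYC at 115th.

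Of the 17, the most negative fitted log2 change was in the region at 129590875 to 129594133, 1848 kb beyond MYC, which had the smallest p of all tested regions. It held 41.4, 40.4 and 52.6 CPM in WM-1119 replicates 1, 2 and 3, against 115, 111 and 98.1 CPM in DMSO replicates 1, 2 and 3. All 3 WM-1119 libraries were far below all 3 DMSO libraries, and DMSO replicate 3, whose weak regions were not raised, was close to the other DMSO libraries. These values rest on 188, 404 and 668 reads in WM-1119 replicates 1, 2 and 3, against 83, 144 and 734 reads in DMSO replicates 1, 2 and 3. The exact Poisson 95% interval was 48.7 to 56.7 CPM in WM-1119 replicate 3, the highest treated library, against 91.9 to 143 CPM in DMSO replicate 1, the shallowest library, for counting error only. The WM-1119 mean was 0.414 of the DMSO mean and 0.457 of DMSO replicate 3 alone. The fitted log2 change was -1.26 with an SE of 0.18 (adjusted p = 4.29e-05 by limma), and with DMSO replicate 3 as the only control it was -1.12, with an unadjusted limma p of 3.13e-05 and an adjusted p of 0.307. Without DMSO replicate 2 the adjusted limma p was 0.274, and edgeR on the recovered reads gave a log2 change of -0.82 (adjusted p = 0.642).

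The second region to fall lay at 129664716 to 129667390, near the far end of CCDC26 in coordinate. It held 40.5, 39.9 and 44.7 CPM in WM-1119 replicates 1, 2 and 3, against 87.6, 91.6 and 73.0 CPM in DMSO replicates 1, 2 and 3. The WM-1119 libraries lay close together and below every DMSO library. The fitted log2 change was -0.99 with an SE of 0.19 (adjusted p = 0.00664 by limma), and with DMSO replicate 3 as the only control it was -0.79 (limma adjusted p = 0.509).

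The last of the 3, at 129535356 to 129537356, held 25.3, 22.8 and 27.5 CPM in WM-1119 replicates 1, 2 and 3, against 76.5, 64.7 and 36.4 CPM in DMSO replicates 1, 2 and 3. The groups did not overlap, but DMSO replicate 3 was nearer to the treated libraries than to the other controls. The fitted log2 change was -1.14 with an SE of 0.22 (adjusted p = 0.0104 by limma), and -0.52 with DMSO replicate 3 as the only control. The calls of the second and last regions were lost when single libraries were left out. Without DMSO replicate 2, WM-1119 replicate 2 or WM-1119 replicate 3 the limma adjusted p of the second was 0.731, 0.288 and 0.078, and that of the last 0.731, 0.288 and 0.0695, and without DMSO replicate 1 that of the last was 0.198. Leaving out DMSO replicate 1, 2 or 3 gave 2, 0 or 13 called regions at the locus, all lower, and 0.0144%, 0% or 38% of all tested regions called lower. Leaving out WM-1119 replicate 1, 2 or 3 gave 3, 1 or 1 at the locus and 0.0735%, 0.00889% or 0.00881% of all tested regions. The 13 thus stand beside a large share of all regions.

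The region at 129580880 to 129583053 had the same layout but missed the threshold. It held 28.6, 34.3 and 39.3 CPM in WM-1119 replicates 1, 2 and 3, against 77.9, 70.9 and 47.5 CPM in DMSO replicates 1, 2 and 3, and its log2 change was -0.90, with an SE of 0.21 and a limma adjusted p of 0.0513. The region at 129544350 to 129545060, just beside the strongest one, also had groups that did not overlap, at 10.6, 7.60 and 5.19 CPM in WM-1119 and 38.9, 12.3 and 11.1 CPM in DMSO. The 2 CCDC26 regions nearest to MYC were high only in DMSO replicates 1 and 2. The first, at 129415445 to 129416216, held 11.0, 8.50 and 6.77 CPM in WM-1119 replicates 1, 2 and 3, against 29.2, 16.9 and 8.82 CPM in DMSO replicates 1, 2 and 3. The second, at 129459740 to 129460907, held 14.8, 15.8 and 13.7 CPM in WM-1119, against 48.7, 28.5 and 13.6 CPM in DMSO. Their log2 changes of -0.86 and -0.82 became -0.03 and 0.10 with DMSO replicate 3 as the only control.

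Beyond CCDC26, CYRIB had 1 strong region at 129938309 to 129940838, 2195 kb beyond MYC. It held 158, 132 and 130 CPM in WM-1119 replicates 1, 2 and 3, against 154, 138 and 140 CPM in DMSO replicates 1, 2 and 3. The groups overlapped, and the log2 change was -0.05 with an SE of 0.16 (adjusted p = 0.86 by limma). The 3 other CYRIB regions were high only in DMSO replicates 1 and 2. The one at 129958112 held 9.47, 7.50 and 6.77 CPM in WM-1119 replicates 1, 2 and 3, against 26.4, 23.9 and 7.35 CPM in DMSO replicates 1, 2 and 3. The one at 129971708 held 17.0, 11.1 and 9.92 CPM in WM-1119, against 25.0, 33.1 and 8.82 CPM in DMSO, and the one at 129973664 held 6.38, 8.70 and 4.72 CPM in WM-1119, against 23.6, 17.7 and 3.07 CPM in DMSO. None passed, and with DMSO replicate 3 as the only control their log2 changes were 0.08, 0.44 and 0.87.

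**Figure D2:**
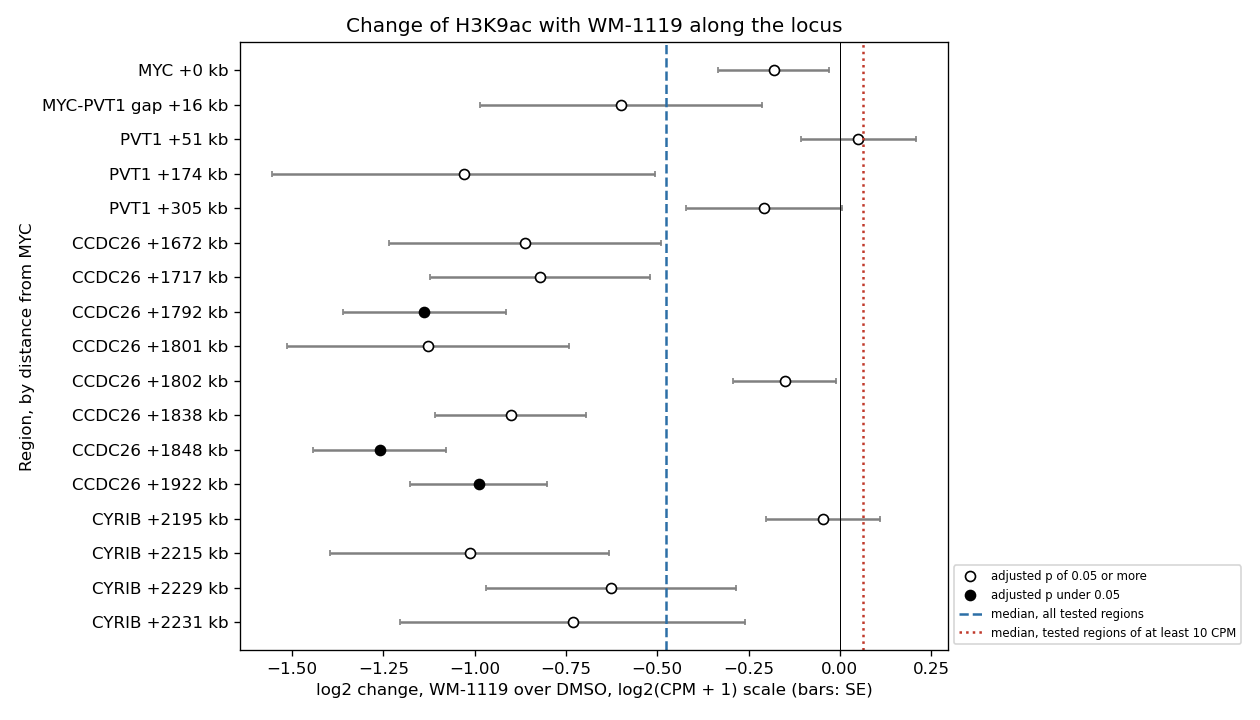
log2 change of each of the 17 regions, WM-1119 over DMSO, on the log2(CPM + 1) scale with its SE, from MYC at the top to CYRIB at the bottom. The 3 filled points, all in CCDC26, passed the adjusted threshold, and the 4 points nearest 0 are MYC, the start of PVT1, the strongest CCDC26 region and the strong CYRIB region. After median centring (not drawn) MYC, the strongest CCDC26 region and the strong CYRIB region were above 0, at 0.59, 0.62 and 0.73. The median of all tested regions of at least 100 CPM was then 1.00.

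The treatments did not overlap in 5 of the 17 regions, all 5 in CCDC26 and lower with WM-1119, and 0 were higher. The one at 129544350 had reached the 10 CPM limit only through DMSO. Among tested regions of at least 10 CPM 8.56% were lower and 11.3% higher with no overlap, with 9.88% and 9.49% on the rest of chromosome 8, and over all tested regions 13.2% and 3.76%. DMSO replicate 3 alone exceeded every WM-1119 library in 8 of the 17, namely MYC, the start of PVT1, the strongest CCDC26 region and the 5 with no overlap. The share of all tested regions with this order was not computed, so the 8 are a description. At an unadjusted limma p under 0.05, 8 of the 17 were lower and 0 higher, beside 10.8% and 2.58% of all tested regions. The shares were 8.71% and 7.99% among those of at least 10 CPM, and 28.2% and 7.93% among such regions on the rest of chromosome 8. The 37 weak regions all had negative fitted changes, with a median log2 change of -0.99. None of them passed, and 15 had an unadjusted limma p under 0.05. Set against DMSO replicate 3 alone, 14 of the 37 had a negative change and the median was 0.11.

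The locus differed by strength. The 4 regions of at least 100 CPM had a median log2 change of -0.10, beside 0.18 for chromosome 8 outside the locus and 0.23 for all regions of that strength. The 7 regions of 20 to 100 CPM had a median of -0.99, beside -0.33 (quartiles -0.66 and -0.04) on the rest of chromosome 8 and 0.09 over all regions of that strength. The 6 regions of 10 to 20 CPM had a median of -0.80, beside -0.81 and -0.40. All of the 6 but the one at 129971708 had reached 10 CPM only through DMSO. With DMSO replicate 3 as the only control the 3 medians at the locus were -0.34, -0.48 and 0.13, in the same order of strength, against 0.02, 0.14 and 0.20 on the rest of chromosome 8. These medians are descriptions with no test.

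Per length, the regions fell into 2 sets. The 4 regions above 100 CPM held 56.1 to 73.8 CPM per kb over the 6 libraries, and the other 13 held 14.9 to 26.6 CPM per kb. The log2 changes of the 4 ran from -0.18 to 0.05 and those of the 13 from -1.26 to -0.21. With DMSO replicate 3 as the only control the changes of the 4 ran from -0.58 to -0.01. Those of the 13 then ran from -1.12 to 0.87, so the 2 sets overlapped in change. The called region at 129590875 had 13.7 CPM per kb in WM-1119 and 33.2 CPM per kb in DMSO. The strongest CCDC26 region had 69.7 CPM per kb in WM-1119 and 77.9 CPM per kb in DMSO.

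**Figure D3:**
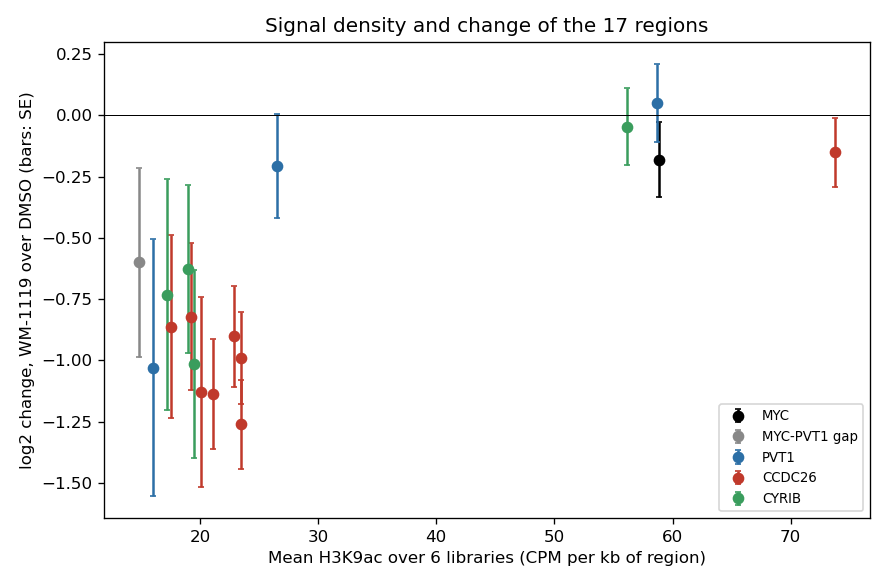
log2 change (WM-1119 over DMSO, with SE) against the mean H3K9ac per kb of region over the 6 libraries, 1 point per region, coloured by gene. The 4 regions at 56.1 CPM per kb and above lie near 0, and the 13 at 26.6 CPM per kb and below spread from -0.21 to -1.26, with CCDC26 points in both sets. With DMSO replicate 3 as the only control (not drawn) the 4 ran from -0.58 to -0.01 and the 13 from -1.12 to 0.87.

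The order of strength along the locus was much the same in every library. The strongest CCDC26 region was first and MYC second in all 6. The start of PVT1 and the strong CYRIB region took the next places, with PVT1 ahead in 4 libraries and CYRIB in 2, WM-1119 replicate 1 and DMSO replicate 1. Of the 16 pairs of neighbours in the order of means, 6 kept their order in all 6 libraries. These were the step from the strongest CCDC26 region to MYC, from MYC to the start of PVT1, from CYRIB to the CCDC26 region at 129590875, from there to 129664716 and on to 129580880, and from 129535356 to the PVT1 region at 127916578. Of the other 10 pairs, 9 were tied or changed order among libraries of the same treatment, and so did not differ beyond the spread between libraries. The remaining pair, the PVT1 region at 128048098 and the CCDC26 region at 129535356, had 1 order in WM-1119 and the other in DMSO. Spearman's rho between libraries over the 17 regions ran from 0.88 to 0.976 over the 15 pairs, 0.927 to 0.976 within a treatment and 0.88 to 0.971 between treatments. These points share libraries and differ in width, so they are a description.

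These were also the 2 regions of the 17 whose ranks did not overlap between treatments. A rank within the locus has no share over all regions to be read against, and ranks within a library are not independent of each other. The PVT1 region at 128048098 was 7th, 5th and 8th in WM-1119 replicates 1, 2 and 3, against 10th, 9th and 9th in DMSO replicates 1, 2 and 3. The CCDC26 region at 129535356 was 9th in every WM-1119 library and 8th in every DMSO library. In DMSO replicate 2 the 2 regions differed by 1 read, with 83 at the PVT1 region and 84 at the CCDC26 region, so their order there is within counting error.

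**Figure D4:**
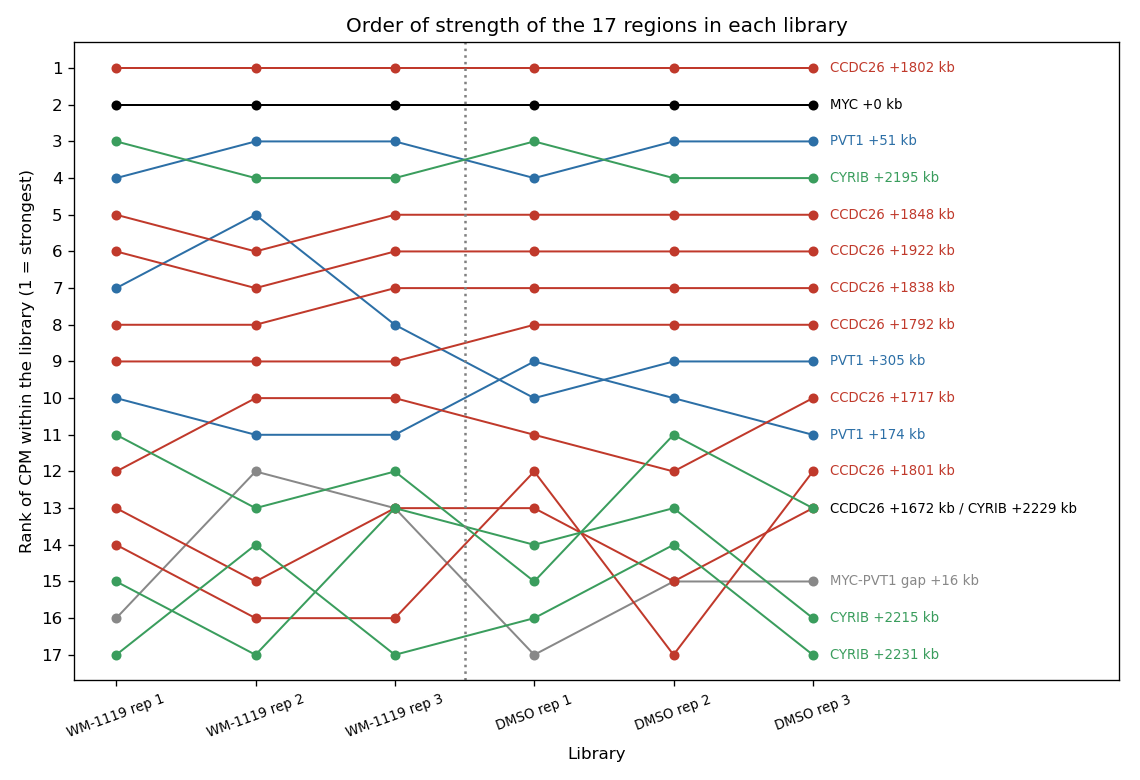
Rank of each of the 17 regions by CPM within each library (1 is the strongest, ties share a rank), with WM-1119 libraries left of DMSO libraries. The first 2 lines are flat, and the PVT1 region at 305 kb stands 5th to 8th in WM-1119 and 9th to 10th in DMSO.

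Shares within the locus do not depend on how a library is scaled, though they do depend on its background. CCDC26 took 42.5%, 40.3% and 43.8% of the CPM in the 17 regions in WM-1119 replicates 1, 2 and 3, against 51.7%, 46.2% and 46.5% in DMSO replicates 1, 2 and 3. The treated libraries lay below the controls, with means of 42.2 ± 1.75% in WM-1119 and 48.1 ± 3.12% in DMSO (SD, n = 3 each). An exact two-sided permutation test gave p = 0.10, the smallest that 3 against 3 allows, so 0.05 could not be reached. Since the locus was chosen with the lower CCDC26 signal known in these libraries, this p is a description only. Split further, the strongest CCDC26 region took 27.7%, 27.2% and 30.1% in WM-1119 and 22.3%, 22.1% and 29.4% in DMSO, and the 7 other CCDC26 regions took 14.8%, 13.1% and 13.7% in WM-1119 and 29.4%, 24.1% and 17.0% in DMSO. The 7 summed were 0.533, 0.482 and 0.453 of the strongest in WM-1119 replicates 1, 2 and 3. In DMSO replicates 1, 2 and 3 they were 1.32, 1.09 and 0.579 of it (exact permutation p = 0.10). The p of this ratio is a description only, for the same reason as that of the share. Of the 7, the regions at 129415445 and 129544350 reached 10 CPM only through DMSO, which favoured a lower sum with WM-1119.

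**Figure D5:**
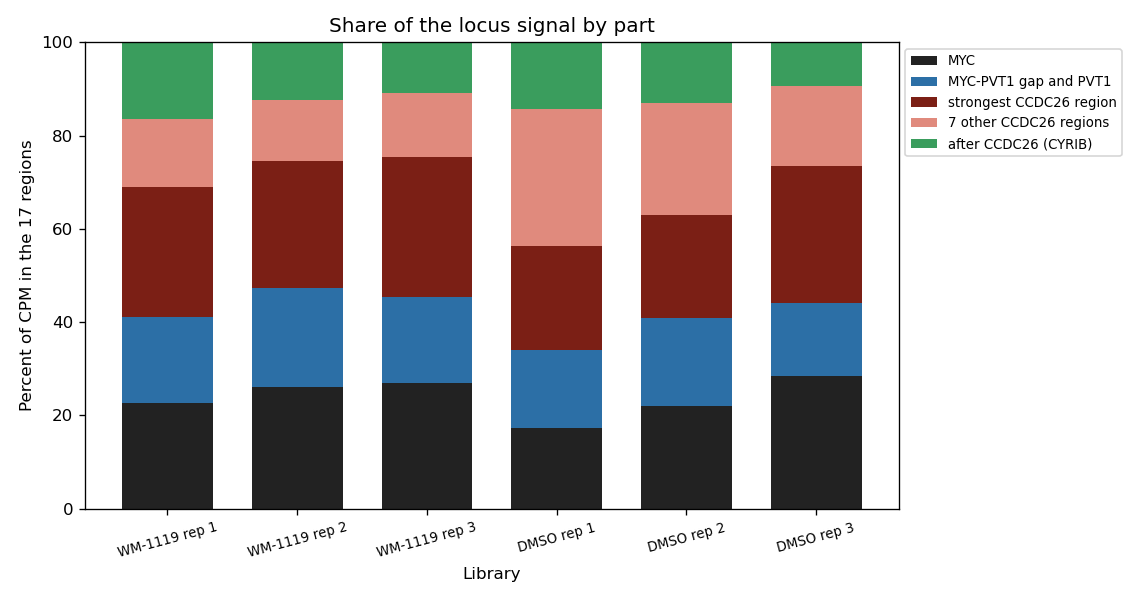
Percent of the CPM of the 17 regions taken by MYC, by PVT1 with the interval before it, by the strongest CCDC26 region, by the 7 other CCDC26 regions and by CYRIB, 1 bar per library with WM-1119 on the left. The 7 other CCDC26 regions take 13.1% to 14.8% in the WM-1119 libraries and 17.0% to 29.4% in the DMSO libraries.

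Set against MYC in the same library, CCDC26 did not separate the treatments. Its 8 regions summed to 1.87, 1.55 and 1.62 times the MYC region in WM-1119 replicates 1, 2 and 3, against 2.97, 2.10 and 1.63 times in DMSO replicates 1, 2 and 3 (exact permutation p = 0.20). The strongest CCDC26 region was 1.22, 1.04 and 1.12 times MYC in WM-1119 and 1.28, 1.01 and 1.03 times in DMSO (exact permutation p = 0.80). DMSO replicate 3 fell among the WM-1119 libraries in the first of these.

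Of the 16 regions compared with MYC in this way, 1 was lower in all WM-1119 libraries than in all DMSO libraries and 1 was higher. Over tested regions of at least 10 CPM, 0.405% were lower relative to MYC with no overlap and 21.5% higher. The lower one was the CCDC26 region at 129590875, at 15.6%, 12.0% and 14.0% of MYC in WM-1119 replicates 1, 2 and 3, against 41.1%, 30.8% and 20.4% in DMSO replicates 1, 2 and 3 (exact permutation p = 0.10, unadjusted over the 16). The higher one was the start of PVT1, at 55.9%, 61.2% and 52.3% of MYC in WM-1119, against 49.5%, 50.4% and 44.2% in DMSO (exact permutation p = 0.10). The 17 regions together held 1166, 1292 and 1390 CPM in WM-1119 replicates 1, 2 and 3, against 1613, 1643 and 1693 CPM in DMSO replicates 1, 2 and 3, again with no overlap (exact permutation p = 0.10). This total includes the regions that reached 10 CPM only through DMSO and the CCDC26 regions already known to be lower. The locus and these ratios were chosen with values known, so the p-values of this paragraph are descriptions.

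At the edge of the 10 CPM limit, the last regions inside were those of CYRIB at 129973664 (10.7 CPM) and between MYC and PVT1 at 127759284 (11.7 CPM). The first outside was the CCDC26 region at 129488872 (9.34 CPM), with 8.15, 8.60 and 4.09 CPM in WM-1119 and 13.9, 18.5 and 2.81 CPM in DMSO. The next was the region at 129681606 just past CCDC26 (8.97 CPM), with 6.60, 3.60 and 4.33 CPM in WM-1119 and 16.7, 16.2 and 6.42 CPM in DMSO.

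No end region of the MYC network genes passed the threshold. Of 23 genes, MYC with its partners, rivals and regulators, 22 had an end region, and 0 were called in either direction, with 0 lower and 4 higher at an unadjusted limma p under 0.05. Among all tested regions of at least 100 CPM, near the list's median level of 99.3 CPM, 0.475% were lower and 24.3% higher by that rule, so the list's count is near that of regions as strong. edgeR also called 0. The median log2 change of the list was 0.18, beside 0.09 for all regions of 20 to 100 CPM and 0.23 for those of at least 100 CPM, and 0.05 with DMSO replicate 3 as the only control. TRRAP, a scaffold that brings acetyltransferases to MYC, held 146, 129 and 134 CPM in WM-1119 replicates 1, 2 and 3, against 93.1, 90.1 and 127 CPM in DMSO replicates 1, 2 and 3 (limma adjusted p = 0.34). MNT, a MAX partner that represses MYC targets, averaged 202 ± 37.4 CPM in WM-1119 and 156 ± 14.8 CPM in DMSO, and MYCL, a relative of MYC, 71.1 ± 4.93 CPM in WM-1119 and 53.7 ± 6.37 CPM in DMSO (SD, n = 3 each). Of the 6 with a negative fitted change, the smallest p after that of MYC belonged to BIN1, which encodes a MYC-interacting adaptor, at 6.95 CPM in WM-1119 and 10.9 CPM in DMSO, and MGA, a MAX partner, at 75.2 CPM in WM-1119 and 80.1 CPM in DMSO, both of which reversed under median centring. Without DMSO replicate 3, 17 of the 36 end regions of this list and that of blood enhancer factors passed, 15 of them higher. The same omission called 38% of all tested regions lower and 5.28% higher, and 52.1% of those of at least 100 CPM higher, so this count is not particular to the lists.

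Of 16 genes for factors and cofactors known at blood enhancers, 14 had an end region, and 0 were called, with 1 lower and 4 higher at an unadjusted limma p under 0.05. The 4 higher are to be read against the same shares of regions of at least 100 CPM. The 1 lower was GATA2, at 17.8 CPM over the 6 libraries. Among all tested regions of 10 to 20 CPM, 771 of 3606 were lower by that rule and 12 higher. edgeR also called 0. The acetyltransferase gene EP300 averaged 269 ± 10.3 CPM in WM-1119 and 208 ± 42.7 CPM in DMSO, and SPI1, the gene of the myeloid factor PU.1, 273 ± 21.9 CPM in WM-1119 and 216 ± 33.8 CPM in DMSO (SD, n = 3 each). GATA2, a stem and progenitor factor gene, had 13.6 ± 0.359 CPM in WM-1119 and 21.9 ± 5.0 CPM in DMSO (SD, n = 3 each; limma adjusted p = 0.365), and TAL1 was near the floor at 0.685 CPM in WM-1119 and 1.48 CPM in DMSO.

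Of 10637 coding genes outside the locus with an end region of at least 10 CPM, those whose log2 levels followed the summed CCDC26 regions most closely over the 6 libraries were CEACAM21, MDC1, AIF1, RHOV and PDE8B, with Pearson's r of 0.974 to 0.985. CEACAM21 held 46.9, 49.5 and 57.9 CPM in WM-1119 replicates 1, 2 and 3, against 93.1, 84.7 and 77.1 CPM in DMSO replicates 1, 2 and 3. The closest to MYC were MRPL17, LDB1 and PPRC1, which share 1 end region, TMEM18 and NOP53, with r of 0.987 to 0.995. MRPL17 held 63.8, 74.3 and 78.6 CPM in WM-1119 and 65.3, 75.5 and 88.2 CPM in DMSO, with DMSO replicate 3 highest as at MYC. With 6 libraries and this many genes searched, such values of r are a description.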

How the data were processed

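H3K9ac ChIP-seq was read in 6 MOLM-13 libraries, whose group and number come from their titles. Bowtie2, SAMtools, MACS2, bedtools and hg38 are named in the submitters' processing notes. For region merging and duplicates, the method was not given in the sources used here. Values deposited, called TPM by the authors, are CPM: each column sums to 1000000, and 100% of values of up to 100 reads lie within 0.02 of a whole multiple of 1 step per library at every width of region. The step of WM-1119 replicate 2, 0.100038 CPM, is near 0.1, but 0% of those values are multiples of 0.1. The design assumed TPM, and the test was the same. Starts were treated as counted from 0, and 1 was added. A count of 0 allows up to 4.17 CPM in DMSO replicate 1 and 0.236 CPM in WM-1119 replicate 3.

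limma 3.58.1 in R 4.3.3 with trend and robust settings took log2(CPM + 1) as input, over the 44763 regions averaging 1 CPM or more, with a single treatment term and Benjamini-Hochberg adjustment. On simulated data, 11% of 2-fold and 89% of 4-fold changes were found among 200 changed regions of at least 10 CPM in 44763, with 0 false calls. The simulation used 1 dispersion of 0.05 and the same profile for every control library. It lacked the raised weak signal of DMSO replicates 1 and 2, so its false calls do not carry over to these data. edgeR 4.0.16 (quasi-likelihood, TMM) was run on the recovered reads. Shares and ratios used exact two-sided permutation of the 6 libraries. Genes came from the RefSeq table of GRCh38.p14. Regions were named by the 10 CPM rule, list genes by the 3 smallest p per direction, and similar genes by the 5 highest r; 1 gene so named is not reported here. The locus, lists, ratios and rules were chosen with earlier results of these data known, and the ratios of single regions after their values were seen. Other steps used scipy 1.17.1 and numpy 2.4.6 in Python 3.11.15.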

Additional observations from a re-analysis of the deposited data

How the results depend on the processing

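The 27 calls over all regions and the 3 at the locus (all lower) depended on libraries and scaling, and the cause was not tested. Over all regions there were 76 calls (51 lower) and at the locus 3 with the first background (10th percentile of CPM per bp on regions of over 500 and up to 1200 bp, per library and chromosome) subtracted, and 1 and 0 with the second (median of weak regions). edgeR gave 41 (40 lower) and 0, with positive log2 changes at 127734179 (0.13), 128048098 (0.25), 129545431 (0.20) and 129938309 (0.38) and values nearer 0 at 129535356 (-0.67) and 129664716 (-0.56), limma without trend and robust 0 and 0 (4 at the locus at an unadjusted p under 0.05, 2 in edgeR), a mean of at least 10 CPM 2 and 1, median centring 2 (both higher) and 0, quantile normalization 1 and 1, and omission of DMSO replicates 1 and 2 together 0 and 0 (6 lower, 1 higher at the locus at an unadjusted p under 0.05). The other pseudocounts and the fit with no filter gave 19 to 23 calls, 3 of them at the locus. With 1 library left out the counts ran from 0 to 19600 and from 0 to 13. At an unadjusted p under 0.05 they were 5970 and 8, and 9 for the network and enhancer factor genes, which had 0 calls otherwise except for 0 to 17 with 1 library left out.

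The replicate block gave 496 calls over all regions and 5 at the locus, adding the regions at 127916578 and 129580880. Each WM-1119 library correlated best with the DMSO library of its own number, at 0.223, 0.0528 and 0.328. DMSO replicate 2 correlated slightly more with WM-1119 replicate 1 (0.0554). These correlations do not settle whether the numbers mark pairs. The labels state no pairing, so the main fit had a treatment term only. With libraries paired by number the CCDC26 share differed by -5.96 points and the ratio to MYC by -0.37 (log2), each with an exact permutation p of 0.25, the smallest 3 pairs allow. These p-values are descriptions too, since the locus was chosen with the lower CCDC26 signal known.

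The mean share of CCDC26 was lower with WM-1119 under every alternative run, with 1 library left out by -6.93 to -4.16 points. With the second background subtracted it differed by -7.74 points (exact permutation p = 0.20), so the treatments no longer separated fully. With DMSO replicate 3 as the only control it differed by -4.31 points. The ratio of CCDC26 to MYC ran from -0.58 to -0.15 with 1 library left out, and turned to 0.0365 (log2) with DMSO replicates 1 and 2 omitted. Of 289 region alternatives 224 kept direction and side of the threshold and 29 reversed, edgeR not counted. In 12 a call was gained and in 24 a call was lost. All 24 were at the 3 called regions, with 10 at 129535356, 5 at 129590875 and 9 at 129664716. Median centring reversed the regions at 127734179 (0.59), 127759284 (0.17), 128048098 (0.56), 129545431 (0.62), 129938309 (0.73), 129971708 (0.15) and 129973664 (0.0398), and BIN1 (0.38), MGA (0.70), GATA2 (0.15) and TAL1 (0.36). It also moved the median of all tested regions of at least 10 CPM from 0.06 to 0.83, and of those of at least 100 CPM from 0.23 to 1.00. The second background reversed 127759284 (0.89), 128048098 (0.76), 129459740 (0.0252), 129971708 (0.65), BIN1 (0.71), GATA2 (0.49) and TAL1 (0.0142), and the first 128048098 (0.0827). Omitting DMSO replicates 1 and 2 reversed 127759284 (0.18), 127793834 (-0.23), 127916578 (0.29), 128048098 (0.35), 129459740 (0.10), 129958112 (0.0824), 129971708 (0.44), 129973664 (0.87) and BIN1 (0.69), and quantile normalization 127793834 (-0.17), BIN1 (0.12) and TAL1 (0.19). With 1 library left out the log2 changes ran from -0.37 to 0.0175 at 127734179 (MYC), -0.12 to 0.20 at 127793834, -0.49 to 0.0096 at 128048098, -0.26 to 0.0030 at 129545431, -0.14 to 0.0038 at 129938309, -0.93 to 0.0549 at BIN1 and -0.33 to 0.11 at MGA. Depth limits the weak regions most in DMSO replicate 1, the shallowest library.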
